A study of Mus musculus with 6 samples.

Results

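Kinesins are motor proteins that walk along microtubules or take them apart. One set of family members builds the mitotic spindle, moves chromosomes and separates daughter cells, and is made mainly in dividing cells. Another set carries vesicles, mitochondria and other cargo along axons, and neurons, which no longer divide, depend on it. The genes described here are those with a symbol of Kif followed by a number, with or without a letter. They were taken by symbol from the platform annotation, each represented by its single-symbol probe set with the highest mean. This gave 37 of the 22180 genes on the array. Grouped by textbook role, 12 are mitotic, 11 are axonal transport motors, and 14 have other roles. The family and the role groups were chosen with earlier results of these data known.

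The 37 genes were followed over 6 single-colour arrays of total RNA, 1 array per group. The groups were fibroblasts of mouse embryos (MEF), such cells after 3, 7 or 14 days of induction into parvalbumin neurons (iPV), iPV cells of day 14 sorted for green fluorescence, and a sample with the label of endogenous PV neurons. Neurons of this type are inhibitory and fire at high rates. Every group, the controls included, came from C57BL/6 mice with the PV-GFP transgene, and each carries a label of embryos aged 13.5 days and the same text on fibroblast culture and adenovirus infection. The sources used here do not give the promoter of the transgene, the content of the virus, or how many animals were pooled. The series followed how expression changes in fibroblasts on their way toward this neuron type. On the array with the endogenous PV label all 10 fibroblast marker genes exceeded 5.01 on the log2 scale, the median over probe sets, with Col1a1 at 12.34, and the parvalbumin gene Pvalb stood at 5.48, Gad1 at 5.13 and Gad2 at 4.09. All 10 fibroblast markers exceeded that line on every array, and in MEF Pvalb stood at 5.23, Gad1 at 5.19 and Gad2 at 4.92. Of 12 neuron markers 8 exceeded the line under that label and 7 in MEF, and of 7 GABAergic and PV markers 4 and 3. Among neuron markers above the line only Snap25 differed 2-fold between these arrays, at 6.53 against 4.44 in MEF. The neuronal identity in that label was thus not borne out by Pvalb, Gad1 and Gad2, and the array is called by its label only.

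Values are log2 intensities, and a difference of 1 is 2-fold. A floor was set at 5.01, the median over non-control probe sets, and lower values were lifted to the floor before differences were taken. A fold that involves such a value is a bound and is written "at least". With 1 array per group no difference has a replicate check and no test was possible. As a technical yardstick, the differences given by 2 probe sets of 1 gene scattered with a standard deviation between 0.27 and 0.50, depending on the arrays compared, which leaves out variation between cultures. Of the 37 kinesins, 24 were above the floor on all 6 arrays and 33 on at least 1. The other 4, Kif2b, Kif9, Kif12 and Kif27, were under it on every array. In bulk RNA, fewer cells of a type and less RNA per cell cannot be told apart.

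The promoters of the mitotic kinesins shared letters that those of the other kinesins mostly lacked. The RefSeq promoter table (GRCm38.p6) held 31 of the 37 genes, with windows of 300 bases from 250 before to 50 after the annotated start. These were 11 of 12 mitotic genes, 7 of 11 axonal ones and 13 of 14 of the others. Some genes have more than 1 window, and each window counts as a promoter. The 9 axonal windows thus stand for 7 genes, with Kif1a and Kif1b counted more than once. The cell cycle homology region is a short element of promoters that are repressed outside late cell cycle phases, and TTTGAA was searched as one of its forms, on both strands, where the other strand reads TTCAAA. It stood in 9 of 11 mitotic promoters (81.8%), in 1 of 9 axonal promoters (11.1%) and in 2 of 15 promoters of the remaining kinesins (13.3%). In all 32851 promoters of the table the share was 17.9%. The letters were not particular to kinesins. TTTGAA also stood in 12 of 15 promoters (80%) of genes whose products work with the mitotic kinesins. Among proliferation markers it stood in 5 of 8 promoters (62.5%). Within 30 bases of the start, a window chosen after the positions were seen, it stood in 7 of 11 mitotic promoters, in 0 of 9 axonal ones and in 3.19% of all promoters. The 3 mitotic promoters shown are those with TTTGAA within 30 bases of the start whose genes had the largest floored difference between day 7 and day 14, and Kif1a, a motor of axonal vesicles, is shown as the contrast. Capitals mark TTTGAA or TTCAAA, and CCAAT or ATTGG, the letters of the CCAAT box.
Kif23, chr9:61946750-61947049, minus strand: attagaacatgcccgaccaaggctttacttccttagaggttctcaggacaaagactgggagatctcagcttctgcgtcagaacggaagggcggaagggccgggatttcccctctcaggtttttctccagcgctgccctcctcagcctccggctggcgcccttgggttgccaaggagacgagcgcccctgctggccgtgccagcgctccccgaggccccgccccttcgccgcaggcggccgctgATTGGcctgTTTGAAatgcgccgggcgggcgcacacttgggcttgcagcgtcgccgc
Kif11, chr19:37376132-37376431, plus strand: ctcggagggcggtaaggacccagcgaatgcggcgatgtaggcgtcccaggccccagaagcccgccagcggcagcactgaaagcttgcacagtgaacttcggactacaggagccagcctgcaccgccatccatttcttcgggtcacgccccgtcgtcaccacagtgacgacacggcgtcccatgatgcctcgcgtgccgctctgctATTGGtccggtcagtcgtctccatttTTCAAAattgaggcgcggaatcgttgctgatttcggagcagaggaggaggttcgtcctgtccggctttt
Kif15, chr9:122950831-122951130, plus strand: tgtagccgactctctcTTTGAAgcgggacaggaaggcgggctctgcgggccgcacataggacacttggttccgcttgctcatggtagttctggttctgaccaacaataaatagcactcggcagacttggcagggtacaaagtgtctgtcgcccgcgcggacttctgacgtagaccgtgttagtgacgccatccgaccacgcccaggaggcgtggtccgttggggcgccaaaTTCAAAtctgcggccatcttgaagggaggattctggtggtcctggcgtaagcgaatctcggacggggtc
Kif1a, chr1:93101825-93102124, minus strand: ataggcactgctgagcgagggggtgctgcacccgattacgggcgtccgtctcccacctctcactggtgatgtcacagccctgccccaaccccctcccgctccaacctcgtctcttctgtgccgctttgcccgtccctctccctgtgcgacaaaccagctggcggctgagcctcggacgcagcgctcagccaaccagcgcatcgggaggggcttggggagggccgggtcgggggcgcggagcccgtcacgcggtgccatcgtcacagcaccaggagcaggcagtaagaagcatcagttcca

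In Kif23 the TTTGAA began 2 bases after the annotated start, and in Kif11 and Kif15 a TTCAAA began 19 bases before the start. Kif15 held a second match 234 bases before the start. RefSeq lists a further Kif1a start at chr1:93082431-93082730 whose window has TTTGAA 44 bases before the start, and this was the axonal match. Among the remaining kinesins the matches were in Kif26b, 9 bases before the start, and in Kif27. The TTCGAA form was in none of the 11 mitotic or 9 axonal promoters, in Kif24 among the remaining kinesins, and in 1.56% of all promoters. CCAAT, again on both strands, was less uneven, with 7 of 11 mitotic promoters (63.6%), 4 of 9 axonal ones (44.4%), 4 of 15 of the remaining ones (26.7%) and 37.4% of all promoters. The 4 axonal promoters with CCAAT belong to 3 of 7 genes, because Kif1b counted with overlapping windows. These matches describe letters in these windows and were not tested as binding sites.

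The mitotic kinesins went down, up and down again over the time course, with MEF and day 7 high and day 3 and day 14 low. For 11 of the 12, MEF and day 7 were the 2 highest of the 6 arrays, and Kif2b, which lay under the floor throughout, was the exception. None of the 11 axonal and 1 of the 14 remaining kinesins, Kif24, had that order, and it was found for 7.79% of all genes. The median over all 12 mitotic members was -1.02 from MEF to day 3, 0.89 from there to day 7 and -1.11 from day 7 to day 14. The median of all 22180 genes was 0 in each of these comparisons. Neighbouring comparisons share an array, so a deviation on day 7 alone would move both the step before and the step after it.

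**Figure D1:**
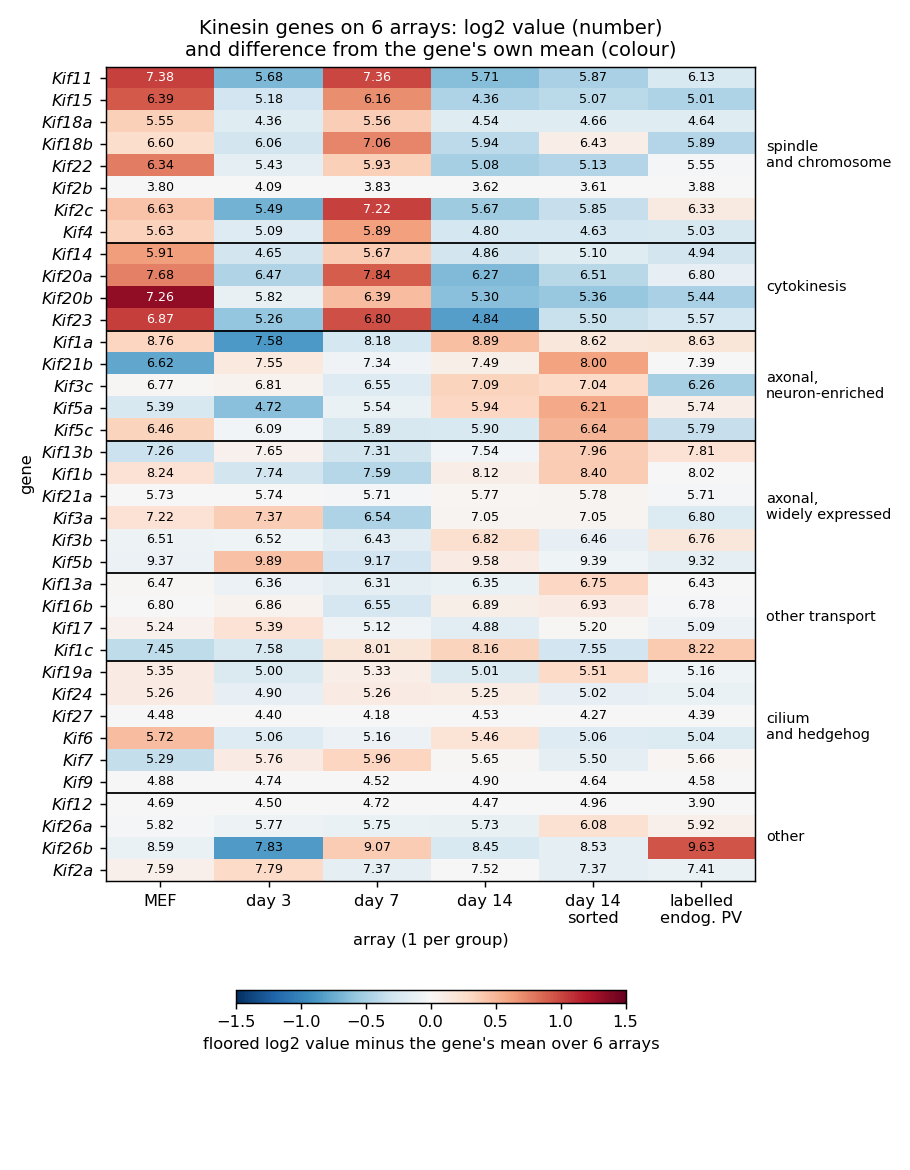
Log2 value (number) of the 37 kinesin genes (rows, grouped by role) on the 6 arrays (columns, 1 per group), with colour for the floored value minus the gene's own mean. The 11 mitotic genes above the floor are red in MEF and at day 7, whereas Kif2b has no colour because it lies under the floor on every array.

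Among the motors of the spindle, Kif11, which pushes the poles apart, had 7.38 in MEF, 5.68, 7.36 and 5.71 on days 3, 7 and 14, 5.87 after sorting and 6.13 under the endogenous PV label. MEF and day 7 were almost equal, and the other 4 arrays lay more than 1 log2 unit below them. Day 3 was thus 3.25-fold below MEF, day 7 was 3.21-fold above day 3, and day 14 was 3.13-fold below day 7. Kif15, which helps Kif11 keep the spindle bipolar, had 6.39 in MEF, 5.18, 6.16 and 4.36 on days 3, 7 and 14, 5.07 after sorting and 5.01 under the endogenous PV label. At day 14 it was under the floor, at least 2.22-fold below day 7.

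Chromokinesins bind chromosome arms and push them toward the spindle equator. Kif22 had 6.34 in MEF, 5.43, 5.93 and 5.08 on days 3, 7 and 14, 5.13 after sorting and 5.55 under the endogenous PV label. Its day 7 value stood only 1.42-fold above day 3, but day 14 was 2.40-fold below MEF. Kif4, which also organises the central spindle, had 5.63, 5.09, 5.89, 4.80, 4.63 and 5.03 on the same arrays in that order. Because Kif4 stayed near the floor, its differences were all under 2-fold with the floor applied, with day 14 at least 1.83-fold below day 7.

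Of the mitotic motors that act on microtubule ends, Kif2c, Kif18a and Kif18b had MEF and day 7 as their highest arrays, and Kif2b did not. Kif2c, which corrects faulty attachments at centromeres, had 6.63 in MEF, 5.49, 7.22 and 5.67 on days 3, 7 and 14, 5.85 after sorting and 6.33 under the endogenous PV label. Its 3.30-fold step from day 3 to day 7 was the largest in that comparison among kinesins above the floor on both arrays, and its day 7 value exceeded MEF by 0.59. Kif18b, which trims astral microtubules together with Kif2c, had 6.60, 6.06, 7.06, 5.94, 6.43 and 5.89. Day 7 was again the highest array, and the 2-fold threshold was just met against day 3 with a difference of 1.003. Kif18a, which limits chromosome movements at the metaphase plate, had 5.55 in MEF and 5.56 at day 7 and lay between 4.36 and 4.66, under the floor, on the other 4 arrays. Kif2b, related to Kif2c, ran from 3.61 in sorted cells to 4.09 at day 3.

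The motors of cytokinesis, which act at the central spindle and midbody, showed the steps as clearly. Kif23, a subunit of centralspindlin, had 6.87 in MEF, 5.26, 6.80 and 4.84 on days 3, 7 and 14, 5.50 after sorting and 5.57 under the endogenous PV label. The drop from day 7 to day 14, to under the floor, was at least 3.45-fold. Kif20a, which brings the chromosomal passenger complex to the central spindle, had 7.68, 6.47, 7.84, 6.27, 6.51 and 6.80. Day 7 was 2.58-fold above day 3 and 2.97-fold above day 14. Kif20b, needed for the final cut between daughter cells, had 7.26, 5.82, 6.39, 5.30, 5.36 and 5.44. It differed from the others in its incomplete return, since day 7 stayed 0.86 below MEF. Kif14, which acts with citron kinase at the midbody, had 5.91, 4.65, 5.67, 4.86, 5.10 and 4.94, and none of its differences reached 2-fold with the floor applied.

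At day 3, 6 of 12 mitotic kinesins were at least 2-fold lower than in MEF (Kif11, Kif15, Kif2c, Kif20a, Kif20b and Kif23) and none was higher. The shares over all genes were 1.64% lower and 1.43% higher. Against day 3, 5 were at least 2-fold higher at day 7 (Kif11, Kif18b, Kif2c, Kif20a and Kif23), where the share of all genes was 1.30%, and none was lower, against 0.528% of all genes. The 2-fold line ran between Kif18b at 1.003 and Kif15 at 0.98 in this comparison. From day 7 to day 14, 7 of 12 were at least 2-fold lower, the same 6 as at day 3 together with Kif18b, where all genes gave 0.825% lower and 0.604% higher. Day 7 against MEF put none of the 12 past 2-fold in either direction, where all genes gave 1.70% higher and 0.843% lower, and the median was -0.01.

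Compared with MEF, 6 mitotic kinesins were at least 2-fold lower at day 14 (Kif11, Kif15, Kif20a, Kif20b, Kif22 and Kif23), with 1.26% of all genes lower and 2.10% higher. The same 6 were at least 2-fold lower in sorted cells, with 1.64% of all genes lower and 3.67% higher. On the array with the endogenous PV label 4 were (Kif11, Kif15, Kif20b and Kif23), with 0.969% of all genes lower and 2.13% higher. Kif20b was 3.87-fold lower at day 14, 3.72-fold in sorted cells and 3.52-fold on the array with the endogenous PV label. Kif23 and Kif15, under the floor at day 14, were at least 3.62-fold and at least 2.60-fold lower there. Kif2c was 1.95-fold below MEF at day 14 but 1.23-fold below it on the array with the endogenous PV label. These comparisons all use the one MEF array, so they are not independent of each other.

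Sorted cells against unsorted day 14 cells put 0 of 12 past 2-fold, where all genes gave 1.26% higher and 0.609% lower, and the median was 0.07. With the floor applied, 9 of the 12 were higher in sorted cells and 0 were lower, where over all genes 6946 were higher and 6246 lower. The others, Kif18a, Kif2b and Kif4, were under the floor on both arrays, and without it they differed by 0.12, -0.01 and -0.17. Kif14, Kif15 and Kif23 were under the floor at day 14 only, so with it applied they could not read lower in sorted cells. Only Kif18b and Kif23 exceeded the technical yardstick of 0.33 for this pair with the floor applied. The largest floored differences there were 0.49 for Kif23, at least 1.41-fold because day 14 was under the floor, and 0.49 for Kif18b, 1.41-fold. Sorted cells against the array with the endogenous PV label also put 0 of 12 past 2-fold, where all genes gave 1.36% higher and 1.14% lower. In that comparison Kif18b was 1.45-fold higher in sorted cells and Kif2c was 1.39-fold lower.

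**Figure D2:**
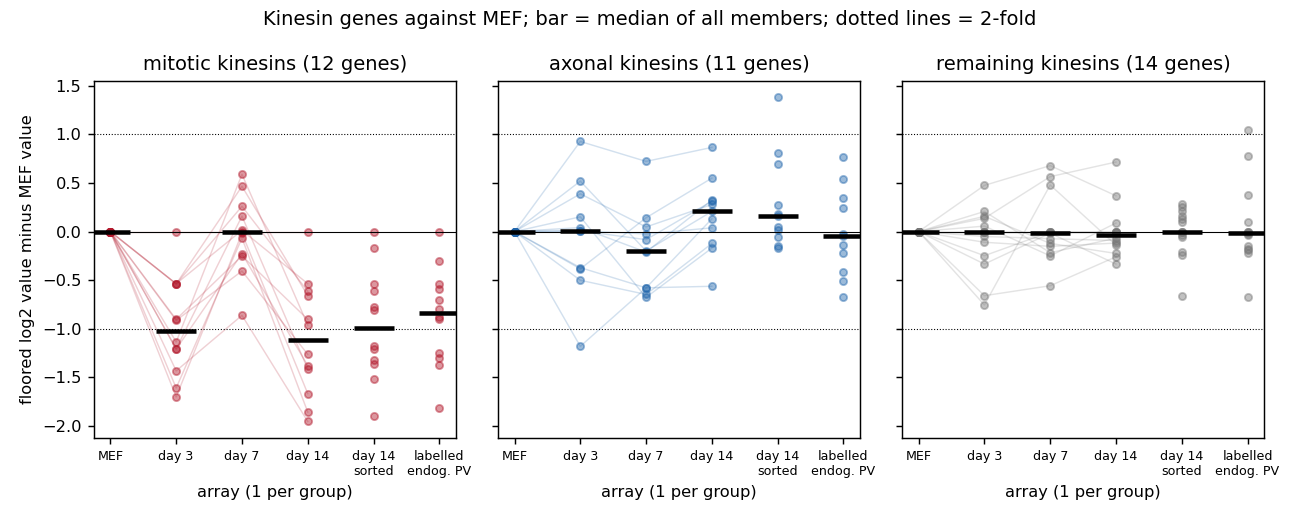
Floored log2 value of each kinesin gene minus its MEF value (vertical axis) on the 6 arrays (horizontal axis), in panels for 12 mitotic, 11 axonal and 14 remaining genes. Points are genes, lines join MEF and days 3, 7 and 14, bars are medians of all members and dotted lines mark 2-fold. The mitotic median is -1.02 at day 3, -0.01 at day 7 and -1.11 at day 14, and the axonal median stays between -0.20 and 0.21.

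Genes whose products work with the mitotic kinesins had the same order of arrays. Of 16 partners, among them the Aurora kinases, Plk1, the passenger complex and Racgap1, 15 had MEF and day 7 as their 2 highest arrays. Numa1 was the exception, and 7.79% of all genes had that order. Racgap1, the partner of Kif23 in centralspindlin, had 7.26 in MEF, 5.89, 7.26 and 6.17 on days 3, 7 and 14, 6.42 after sorting and 6.71 under the endogenous PV label. At least 2-fold differences were found in 9 of 16 at day 3 against MEF, all lower. They were found in 8 at day 7 against day 3, all higher, and in 10 at day 14 against day 7, all lower. The shares of all genes in these directions were 1.64%, 1.30% and 0.825%. Cenpe, the kinetochore motor that is a kinesin without a Kif symbol, had 7.96, 6.07, 7.25, 5.89, 6.04 and 6.34. Its differences over the 3 steps were -1.89, 1.18 and -1.36.

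Of 8 proliferation markers, 7 had MEF and day 7 as their 2 highest arrays, like the mitotic kinesins, where 7.79% of all genes did. Mcm2 was the exception, with 6.62 in MEF and 6.75, 7.17 and 6.51 on days 3, 7 and 14. The summed intensity of the 8 markers, on a linear scale, was 2147 in MEF, 880, 2228 and 903 on days 3, 7 and 14, 961 after sorting and 1086 under the endogenous PV label. All 8 were above the floor on every array, and Mki67 had 9.31, 7.24, 8.85, 7.14, 7.77 and 8.06. None of 11 regulators of cell cycle transcription, the inhibitor Cdkn1a included, passed 2-fold in the 3 steps of the time course, where the all-gene shares were between 0.528% and 1.64% in each direction. Relative to MEF, Rbl1 was 2.03-fold lower at day 14, 2.02-fold lower after sorting and 2.13-fold lower under the endogenous PV label, where Lin9 was 2.31-fold lower. Foxm1, an activator of late cell cycle genes, came to -0.61, 0.66 and -0.87 in the 3 steps, and Rbl1, which encodes the pocket protein p107, to -0.81, 0.55 and -0.76. Macrophage markers also differed between the arrays: their summed intensity over 8 genes was 1627 in MEF, 350, 652 and 657 on days 3, 7 and 14, 387 after sorting and 1986 under the endogenous PV label, with 5 or 6 of the 8 above the floor and the pan-leukocyte gene Ptprc under it on every array. The sum over 10 fibroblast markers ranged from 26986 at day 3 to 37473 on the array with the endogenous PV label. The part of these cells in the kinesin differences was not tested.

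None of the 11 axonal kinesins had that order of arrays. Past 2-fold were Kif1a, lower at day 3 than in MEF, and Kif21b, higher in sorted cells than in MEF. The all-gene shares were between 0.528% and 3.67% in each direction of the 9 comparisons, so counts this small are near the background. All 11 were above the floor on at least 1 array and 10 on all 6. Their highest array was the sorted cells for 6 of 11, day 14 for 3 and day 3 for 2, and the lowest was day 7 for 5. The medians of all 11 were 0.01, -0.20 and 0.41 over the 3 successive steps of the time course, and relative to MEF they were 0.21 at day 14, 0.16 after sorting and -0.05 under the endogenous PV label. The signs of the small ones depended on scaling: after quantile normalization the median of the axonal kinesins for day 3 against MEF was -0.0040, and after centring on housekeeping genes that for the array with the endogenous PV label against MEF was 0.15.

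Among the neuron-enriched members, Kif1a, which carries precursors of synaptic vesicles, had 8.76 in MEF, 7.58, 8.18 and 8.89 on days 3, 7 and 14, 8.62 after sorting and 8.63 under the endogenous PV label. It was already high in fibroblasts, and day 3 was the low array, 2.27-fold below MEF. This was the only one of the 11 that passed 2-fold in that comparison, and by day 14 Kif1a stood 0.13 above MEF. Kif21b, which also restrains microtubule growth, had 6.62 in MEF, 7.55, 7.34 and 7.49 on days 3, 7 and 14, 8.001 after sorting and 7.39 under the endogenous PV label. MEF was its lowest array, and sorted cells stood 2.61-fold above it, the one axonal gene past 2-fold in that comparison. The difference of Kif21b was 1.22 after quantile normalization and 1.54 after centring on housekeeping genes.

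Kinesin heavy chains of the conventional type carry mitochondria and vesicles, and their 3 genes behaved differently. Kif5a, the form most restricted to neurons, had 5.39 in MEF, 4.72, 5.54 and 5.94 on days 3, 7 and 14, 6.21 after sorting and 5.74 under the endogenous PV label. Day 3 was its lowest array, under the floor, and sorted cells, its highest, were 1.75-fold above MEF. Kif5c, also enriched in neurons, had 6.46, 6.09, 5.89, 5.90, 6.64 and 5.79. Sorted cells and MEF were its 2 high arrays, and sorted cells stood 1.67-fold above unsorted day 14 cells. Kif5b, the form found in most cells, had 9.37, 9.89, 9.17, 9.58, 9.39 and 9.32, highest at day 3. A second Kif5b probe set gave 4.85, 5.40, 4.14, 4.03, 3.84 and 3.89, with day 3 its only array above the floor.

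The heterotrimeric kinesin pairs Kif3a with Kif3b or Kif3c for axonal transport, and its Kif3a and Kif3b form also moves cargo into cilia. Kif3a had 7.22 in MEF, 7.37, 6.54 and 7.05 on days 3, 7 and 14, 7.05 after sorting and 6.80 under the endogenous PV label. Its day 7 value lay 1.78-fold below day 3. Kif3b had 6.51, 6.52, 6.43, 6.82, 6.46 and 6.76, a range of 0.40 over all arrays. Kif3c, the neuron-enriched subunit, had 6.77, 6.81, 6.55, 7.09, 7.04 and 6.26, and sorted cells were 1.72-fold above the array with the endogenous PV label. Kifap3, the accessory subunit of this motor, ran from 7.78 on the array with the endogenous PV label to 8.74 in MEF.

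Among the remaining axonal motors, Kif1b, which moves mitochondria and synaptic vesicle precursors, had 8.24 in MEF, 7.74, 7.59 and 8.12 on days 3, 7 and 14, 8.40 after sorting and 8.02 under the endogenous PV label. Day 14 was 1.44-fold above day 7. Kif13b, a vesicle motor with a part in axon formation, had 7.26, 7.65, 7.31, 7.54, 7.96 and 7.81, and sorted cells were 1.62-fold above MEF. Kif21a, a relative of Kif21b that acts in growing axons, lay between 5.71 and 5.78 on all arrays, the narrowest range of the 37 genes at 0.07.

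From day 7 to day 14 all 11 axonal kinesins had a higher value, by 0.02 for Kif5c up to 0.71 for Kif1a, and none passed 2-fold. Over all genes 7651 were higher and 5669 lower with the floor applied, and the rest of the 22180 were tied. Housekeeping centring left 10 of 11 axonal kinesins higher. The technical yardstick for this pair of arrays was 0.27, which Kif1a, Kif1b, Kif3a, Kif3b, Kif3c, Kif5a and Kif5b exceeded and Kif5c, Kif13b, Kif21a and Kif21b did not. In the same comparison all 11 measured mitotic kinesins had a lower value. For Kif4, Kif14, Kif15, Kif18a and Kif23, under the floor at day 14, that sign was fixed by their exceeding the floor at day 7. Without the floor they differed by -1.085, -0.81, -1.81, -1.02 and -1.96. The step shares its day 7 array with the preceding comparison, in which 9 of 11 axonal kinesins had a lower value.

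Sorted cells exceeded the array with the endogenous PV label in 9 of 11 axonal kinesins, with a median of 0.25, none of them 2-fold. Over all genes 7572 were higher and 5650 lower in sorted cells with the floor applied, and the rest of the 22180 were tied. Kif5c at 1.81-fold and Kif3c at 1.72-fold had the largest of these differences.

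Across the series the contrast between the mitotic and axonal motors changed sign with the array. Each gene was expressed as its deviation from its own mean over the 6 arrays, and the median of the 11 axonal kinesins was subtracted from that of the 11 mitotic ones above the floor on some array. The result was 0.76 in MEF, -0.28, 0.94 and -0.60 on days 3, 7 and 14, -0.64 after sorting and -0.23 under the endogenous PV label. MEF and day 7 thus lay on the mitotic side, and the other 4 arrays on the axonal side. Because deviations from one mean must balance, these 6 values depend on one another and are a description. The filter also feeds the contrast, since Kif18a was above the floor only in MEF and at day 7, and Kif14 only there and after sorting.

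**Figure D3:**
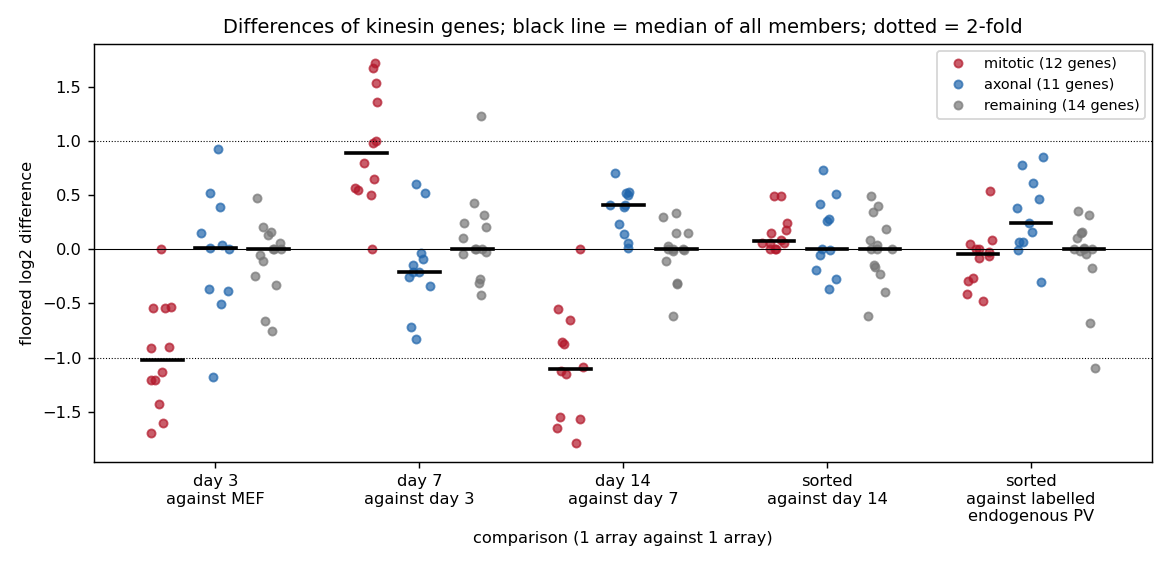
Floored log2 difference (vertical axis) of each kinesin gene in 5 comparisons of 1 array with 1 array (horizontal axis), coloured for 12 mitotic, 11 axonal and 14 remaining genes. Black lines are medians of all members and dotted lines mark 2-fold. The mitotic median goes from -1.02 to 0.89 to -1.11 over the time course, the axonal median from 0.01 to -0.20 to 0.41.

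Other components of axonal transport also had few genes past 2-fold, at counts near the all-gene shares of 0.528% to 3.67%. Among 16 light chains and cargo adaptors of kinesins, Trak1 and Fez2 passed 2-fold, each in 1 of the 9 comparisons. Trak1, which links mitochondria to the heavy chains, had 7.70 in MEF, 8.05, 8.17 and 8.49 on days 3, 7 and 14, 8.76 after sorting and 8.42 under the endogenous PV label, and sorted cells exceeded MEF by 1.06. Fez2, an adaptor related to the axon growth protein Fez1, was 1.10 higher at day 14 than in MEF. Klc1, a light chain of the conventional motor, ranged from 8.48 at day 3 to 9.18 at day 14. Of 16 genes of dynein, the motor that moves the opposite way along axons, and its activator dynactin, none passed 2-fold in any of the 9 comparisons with the floor applied. For Dync1i1, an intermediate chain of dynein, this is a bound, since it had 5.68 in sorted cells, at least 1.59-fold above the other 5 arrays, where it lay under the floor. The summed intensity of 12 neuron markers was 1202 in sorted cells and between 710 and 859 on the other arrays. Sorted cells were the highest array for 7 of the 12, whereas Gap43, at 5.99, had its lowest value there. Over 7 markers of GABAergic and PV neurons the sum was 239 in sorted cells and 265 at day 14. Of the 7, 3 had their lowest value in sorted cells and 2, Pvalb and Kcnc1, their highest. Pvalb stood at 6.29 in sorted cells, 5.80 at day 14 and 5.23 in MEF. Only 2 of the 7 were above the floor in sorted cells. Between sorted and unsorted cells of day 14, 3 of the 12 neuron markers and 0 of the 11 axonal kinesins were at least 2-fold higher, where the share of all genes was 1.26%.

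**Figure D4:**
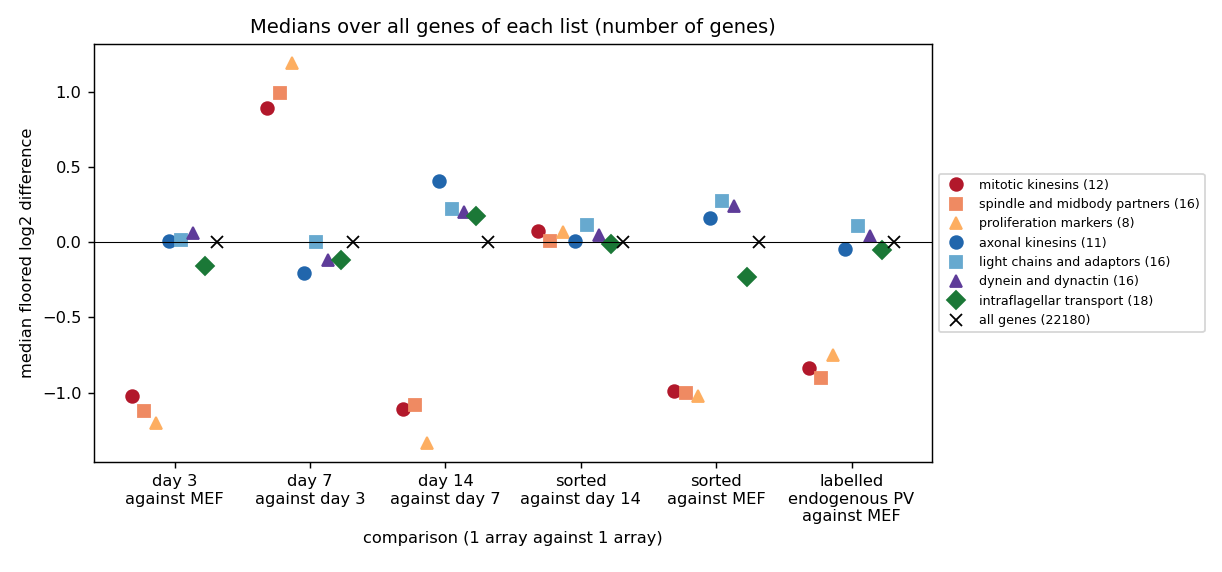
Median floored log2 difference (vertical axis) of all genes of 7 lists and of all 22180 genes (symbols, with gene numbers in the legend) in 6 comparisons of 1 array with 1 array (horizontal axis). Mitotic kinesins, their partners and proliferation markers lie together, for example at -1.02, -1.12 and -1.20 for day 3 against MEF. The transport lists lie nearer 0 except for sorted against day 14, where all lists lie between -0.01 and 0.11.

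Among the remaining 14 kinesins, Kif26b was the only one to pass 2-fold in any of the 9 comparisons, where between 0.528% and 3.67% of all genes did so in each direction. Kif26b is an atypical kinesin that acts in cell adhesion and kidney development. It had 8.59 in MEF, 7.83, 9.07 and 8.45 on days 3, 7 and 14, 8.53 after sorting and 9.63 under the endogenous PV label. That array was its highest and day 3 its lowest. Day 7 stood 2.35-fold above day 3, and sorted cells stood 2.14-fold below the array with the endogenous PV label. Against MEF that array stood 2.06-fold higher, a difference of 1.04 that fell short of 2-fold after quantile normalization (0.94). Its relative Kif26a, known for its part in the enteric nervous system, ranged only from 5.73 to 6.08.

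The motors of endosomes and other vesicles varied by less than 2-fold. Kif1c, a vesicle motor of many tissues, had 7.45 in MEF, 7.58, 8.01 and 8.16 on days 3, 7 and 14, 7.55 after sorting and 8.22 under the endogenous PV label. Its sorted cells were 1.53-fold below unsorted day 14 cells. Kif13a, which positions endosomes, ranged from 6.31 at day 7 to 6.75 in sorted cells, and Kif16b, a motor of early endosomes, from 6.55 at day 7 to 6.93 in sorted cells. Kif17, a dendritic and ciliary motor, ranged from 4.88 at day 14 to 5.39 at day 3. Kif2a, which shortens microtubules in axon branches as well as at spindle poles, ranged from 7.37 to 7.79 and did not have the order of arrays seen for its relative Kif2c, since its highest array was day 3.

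Kinesins of cilia lay near or under the floor. Kif7, which controls Gli factors of the hedgehog pathway at the tip of the cilium, had 5.29 in MEF, 5.76, 5.96 and 5.65 on days 3, 7 and 14, 5.50 after sorting and 5.66 under the endogenous PV label. Its day 7 value was 1.60-fold above MEF, and a second Kif7 probe set lay under the floor on all arrays, from 4.30 to 4.60. Kif6, a motor of motile cilia, was highest in MEF at 5.72 and lay between 5.04 and 5.46 elsewhere. Kif19a, which limits cilium length, ranged from 5.004 to 5.51, and Kif24, which acts at the mother centriole, from 4.90 to 5.26. The 2 motile cilium genes Kif9 and Kif27 peaked at 4.90 and 4.53, and Kif12, known from kidney and liver, at 4.96. Of 18 intraflagellar transport genes, whose products Kif3a and Kif3b move, Ift27 differed by 1.16 and Ift57 by -1.003 between sorted cells and MEF, and no other passed 2-fold in any of the 9 comparisons.

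Scaling affected the all-gene background, most strongly in 3 comparisons. Centring on 14 housekeeping genes brought the all-gene median to 0.12 for sorted against unsorted cells, and relative to MEF to 0.16 after sorting and to 0.21 under the endogenous PV label. The share of higher genes among those past 2-fold then went from 67.5% to 81.1% for sorted against unsorted cells, from 69.1% to 81.1% for sorted cells relative to MEF, where quantile normalization gave 57.7%, and from 68.8% to 83.7% under the endogenous PV label. For day 14 against day 7 the share went from 42.3% to 32.9% after centring and to 36.8% after quantile normalization. Relative to MEF it went from 66.8% to 73.9% at day 7 after centring, and from 62.6% to 54.2% at day 14 after quantile normalization. The counts of mitotic and axonal kinesins past 2-fold kept within 1.5 times of those given under both scalings.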

How the data were processed

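Total RNA of 6 mouse cell samples was hybridised to Affymetrix arrays, 1 per group. The values deposited by the authors are log2 values in a single table, and the submitters' processing notes name Affymetrix Expression Console. Not given in the sources used here were its version, the algorithm and the build. The scale was read from the values. Of 41345 probe sets, 5333 controls were left out, and 23521 had 1 symbol. The probe set with the highest mean stood for each of 22180 genes. All 37 kinesins matched RefSeq (GRCm38.p6) by Entrez identifier. Array medians lay between 4.86 and 5.00, all under the floor, so they were not taken over the same probe sets as the floor. Values under 5.01 were raised to it, 9 differences between arrays were taken, and genes were counted at 2-fold (a difference of 1 or more). With 1 array per group no test was run, and the number of arrays limits the precision. The technical yardstick is the standard deviation, over 327 to 403 genes, of the disagreement between the differences given by 2 probe sets, divided by the square root of 2.

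Each of the 37 genes with a matching symbol is named. Other genes came from the largest differences of their list, and those named for a level or a role were chosen after their values were seen. The members and lists were chosen with earlier results of these data known. The counting was checked on simulated data. Alternatives were quantile normalization, centring on 14 housekeeping genes, the mean of all probe sets, no floor, a floor at percentile 75, thresholds of 1.5-fold and 4-fold, a wider role list, and, added after seeing the data, only members above the floor. Python 3.11.15, pandas 2.3.3 and numpy 2.4.6 were used.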

Additional observations from a re-analysis of the deposited data

How the results depend on the processing

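Of 444 alternative values, 404 stayed close to the value given (counts within 1.5 times, medians and contrasts by less than the technical yardstick), 40 moved further and 0 reversed beyond that yardstick. All values under quantile normalization, housekeeping centring, the mean of probe sets, no floor, a wider role list and only members above the floor were among the 404. A floor at percentile 75, above most mitotic kinesins, left 1 mitotic kinesin past 2-fold in each of the 3 steps of the time course and, relative to MEF, 1 at day 14, 1 after sorting and 0 under the endogenous PV label. The mitotic median was then -0.0071 relative to MEF at day 3, at day 14, after sorting and under the endogenous PV label, and 0 in the steps to day 7 and to day 14 and at day 7 relative to MEF, and the mitotic minus axonal contrast was 0.41 in MEF, -0.21 at day 14 and -0.29 after sorting. At 4-fold the mitotic count was 0 in every comparison, and the axonal count was 0 at day 3 and after sorting, relative to MEF. At 1.5-fold, 8 mitotic kinesins were higher at day 7 than at day 3, and relative to MEF 1 was higher and 1 lower at day 7, 10 were lower at day 14 and 9 lower under the endogenous PV label. At 1.5-fold the axonal counts in the 3 steps were 1 higher and 1 lower to day 3, 1 higher and 2 lower to day 7, and 1 higher to day 14. Relative to MEF they were 1 higher and 2 lower at day 7, 1 higher at day 14, 3 higher after sorting, and 1 higher and 1 lower under the endogenous PV label. Sorted cells had 1 higher than unsorted cells and 3 higher than the array with the endogenous PV label. The median of the axonal kinesins for sorted against unsorted cells, 0.01, was -0.05 after quantile normalization. No paired analysis was possible because each group has 1 array, so no replicate could be left out either.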

Other observations

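A probe set named for both 1110002L01Rik and Kif3c, left out because it has 2 symbols, read 6.83 in MEF, 6.68, 6.62 and 7.61 on days 3, 7 and 14, 7.07 after sorting and 7.12 under the endogenous PV label. Its highest array was day 14, as for the single-symbol Kif3c probe set, but the array with the endogenous PV label was its second highest, where the single-symbol set had its lowest value. The pseudogene Kif4-ps, whose symbol the rule does not match, lay under the floor on all arrays, between 4.58 and 4.91.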
